A study of Bos taurus with 6 samples.

Results

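Isolated CpGs are CpG dinucleotides that stand alone, with no other CpG close by. Here a CpG counted as isolated when the nearest other CpG seen in any of the 6 libraries was more than 200 bp away on the same autosome, with the cytosines of both strands joined into 1 CpG. Of 23717535 CpGs seen on the 29 autosomes, 963976 (4.06%) met this rule, which used positions and no methylation value. The libraries were whole-genome bisulfite sequencing (WGBS) of rumen epithelial primary cells (REPC), cultured from the lining of the first stomach chamber of 1 Holstein bull calf that was 2 weeks old and had been fed milk replacer. The comparison was between 3 control libraries and 3 libraries from REPC that had received 5 mM butyrate for 24 h. Butyrate is a short-chain fatty acid from rumen fermentation that inhibits histone deacetylases. All cells came from 1 calf. The study's methods call the libraries biological replicates, and the labels name no separate cultures, so that p-values measure the spread between these libraries and not between animals. The files hold methylation counts and no expression, so the cell type was taken as labelled.

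In mammals, the maintenance enzyme DNMT1 copies methyl groups at CpGs to the new strand after DNA replication. Methylated cytosines mutate readily to thymine, which has left most of the genome poor in CpGs, so that many CpGs have no close neighbour. In cultured and ageing cells, late-replicating stretches known as partially methylated domains lose methylation, and CpGs without neighbours are known to be among the sites where this loss is most visible. CpG-dense islands, which often lie at promoters, mostly stay unmethylated.

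The median distance from an isolated CpG to its nearest neighbour was 291 bp, against 18 bp over all CpGs. The 90th percentile among isolated CpGs was 550 bp, and the largest distance was 9490 bp. Of the isolated CpGs, 449952 (46.7%) had no isolated CpG beside them, 408186 (42.3%) had one on 1 side and 105838 (10.98%) had one on both sides. Isolated CpGs made up 6.40% of the CpGs seen on chromosome 1 and 1.34% on chromosome 25, the extremes among the autosomes.

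Single sites held few reads. In a library, 30.8% to 34.0% of the isolated CpGs were covered, against 46.0% to 53.1% of other CpGs, and 79.3% to 82.1% of the covered isolated CpGs had exactly 1 read. Summed over all isolated CpGs, a library still held 362031 to 409805 reads, so that its pooled level had a 95% Wilson interval of at most 0.158 percentage points to either side, which covers counting error only. Libraries mostly read different isolated CpGs: for each pair, 30.6% to 34.2% of those covered in the first were covered in the second. In total, 443516 isolated CpGs (46.0%) were seen in a single library, against 19.9% of other CpGs, and 5741 (0.596%) in all 6. The level was 58.1% for isolated CpGs seen in a single library and lay between 58.99% and 63.2% for those seen in more. Other CpGs seen in a single library had nearly the same level, 58.5%, and those seen in more had 65.6% to 68.1%.

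Isolated CpGs were less methylated than the rest of the autosomes. The level, defined as the methylated share of all reads, was 61.678%, 61.611% and 61.598% in the controls and 61.998%, 61.726% and 61.579% in the butyrate libraries, each in the order of the replicate numbers. Isolated CpGs thus lay close together in all 6 libraries, and other CpGs lay above them in each, at 65.96% to 66.74%. The difference of isolated minus other CpGs was -4.68 points ± 0.287 (SD, n = 6), with the same sign in 6 of 6 libraries (two-sided exact sign-flip permutation p = 0.03125, the smallest that 6 libraries can give). Coverage moved with this difference, since isolated CpGs were covered less often. Among CpGs covered in 2 or more libraries the difference was -4.10 points, and in those covered in all 6 it was -6.64 points. Both had the same sign in every library. In CpGs seen in a single library, isolated and other CpGs were close, at 58.1% and 58.5%. The size of the difference depended on the distance that defined isolation, at -1.62 points with a limit of 100 bp and -7.84 points with one of 400 bp.

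Pooled over all bins, the level fell with distance among the isolated CpGs themselves. In the distance classes used here, the lower limit is left out and the upper one included. The level was 62.6% ± 0.168 (SD, n = 6) at 200 to 300 bp from the nearest CpG, 61.6% ± 0.178 at 300 to 500 bp and 57.8% ± 0.294 over 500 bp. The farthest class minus the nearest was -4.82 points, with the same sign in 6 of 6 libraries (two-sided exact sign-flip permutation p = 0.03125). Farther out, the 10629 CpGs at 1000 to 2000 bp had a level of 53.3% and the 440 CpGs over 2000 bp one of 42.1% ± 2.95 (SD, n = 6), the latter from 119 to 173 reads per library. Just inside and just outside the limit of the rule, CpGs at 200 to 210 bp had 65.5% and those at 190 to 200 bp 66.8%. Below 200 bp the level did not follow distance in 1 direction. It was 65.1% up to 10 bp, 69.4% at 10 to 20 bp, 67.1% at 20 to 50 bp, 64.8% at 50 to 100 bp and 66.2% at 100 to 200 bp.

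**Figure D1:**
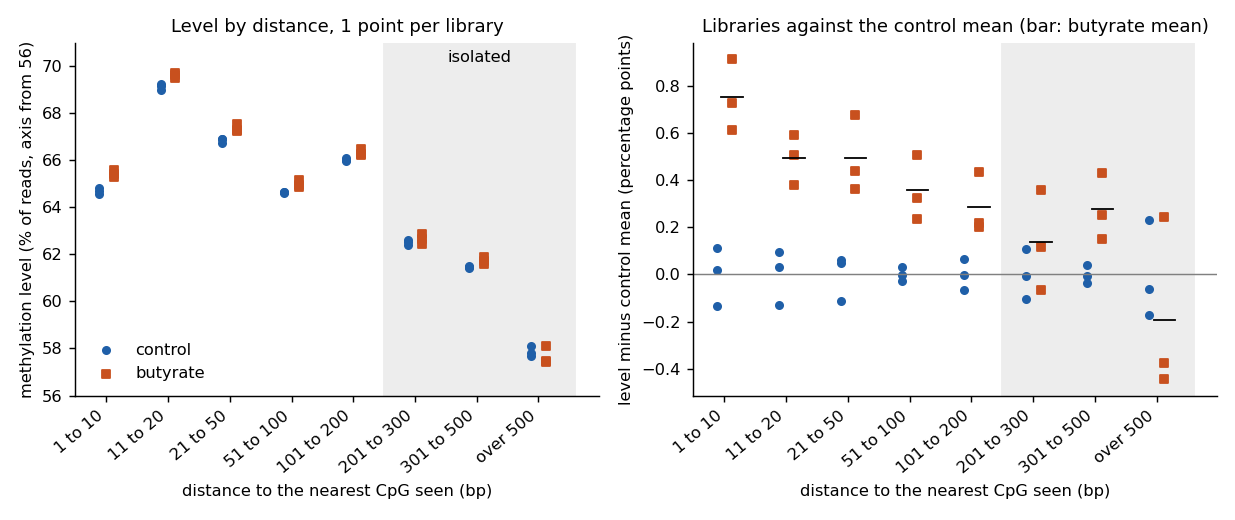
Methylation level of autosomal CpGs by distance to the nearest CpG seen (left, % of reads, with the axis starting above 0) and the same levels minus the control mean of the class (right, percentage points), with 1 point per library, control as circles and butyrate as squares. Isolated CpGs (shaded) fall from 62.6% to 57.8%, and the butyrate mean (bar) lies 0.755 points above control up to 10 bp and at -0.194 points over 500 bp.

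Over all bins, the number of isolated neighbours gave a similar order. Isolated CpGs with no isolated CpG beside them had a level of 63.3% ± 0.193 (SD, n = 6), those with one on 1 side 60.8% ± 0.151 and those with one on both sides 58.2% ± 0.229. The difference of -5.08 points between both sides and none had the same sign in 6 of 6 libraries (two-sided exact sign-flip permutation p = 0.03125). The median distance to the nearest CpG rose over these groups as well, from 283 to 306 bp. The groups were not compared within stretches of like methylation or CpG content.

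Next, isolated CpGs were compared by the methylation of the sequence around them. Each 100-kb bin was placed in 1 of 5 classes by the level of its other CpGs, with the isolated CpGs left out and the reads of 6 libraries pooled. In total, 25122 of 25129 bins had the 100 reads needed for a class, and they held 963891 of the isolated CpGs. Isolated CpGs had a level of 52.4% ± 0.384 (SD, n = 6) in the 1834 bins under 50% and of 52.1% ± 0.239 in the 5093 bins at 50 to 60%. These lowest classes lay within the spread between libraries of each other. The level of isolated CpGs was then 58.7% ± 0.162 in the 8877 bins at 60 to 70%, 69.0% ± 0.405 in the 6329 bins at 70 to 80% and 80.5% ± 0.553 in the 2989 bins at 80% and over, and each of these steps was larger than the spread.

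Within the same bins, isolated minus other CpGs came to -3.59 points in bins at 50 to 60%, -6.87 points at 60 to 70%, -4.67 points at 70 to 80% and -3.43 points at 80% and over. In bins under 50% isolated CpGs were 12.1 points higher, at 52.4% against 40.3%. Each of these 5 differences had the same sign in 6 of 6 libraries. They are given as a description with no test, because the level of other CpGs both set the class and entered the difference. The higher value in bins under 50% turned on which CpGs stood for the rest. CpGs up to 10 bp from their neighbour, the spacing found in CpG-dense islands, had a level of 29.8% in these bins. CpGs at 100 to 200 bp had 56.6% there, and isolated CpGs minus these came to -4.17 points, again with the same sign in 6 of 6 libraries. With bins of 500 kb in place of 100 kb, isolated minus other CpGs kept these signs and was 5.95 points under 50%, -5.90 points at 50 to 60%, -3.74 points at 60 to 70% and -2.15 points at 70 to 80%. Other settings turned signs: the gap at 50 to 60% was 1.14 points with isolation over 100 bp, and with classes from CpGs at 50 to 200 bp the gap was -19.3 points under 50%, 6.22 points at 70 to 80% and 5.91 points at 80% and over.

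To set isolated CpGs against their like, the classes were also formed from the CpGs at 50 to 100 bp alone, and the comparison was with CpGs at 100 to 200 bp, so that neither set entered the class. This choice was made after the values above had been seen. In bins where the CpGs at 50 to 100 bp were under 50%, isolated CpGs had a level of 42.6% ± 0.101 for control and 42.5% ± 0.132 for butyrate (SD, n = 3 each), and they differed from the CpGs at 100 to 200 bp by -4.40 points. The gap was -3.78 points at 50 to 60%, -2.96 points at 60 to 70%, -0.885 points at 70 to 80% and -0.553 points at 80% and over, each with the same sign in 6 of 6 libraries (two-sided exact sign-flip permutation p = 0.03125, also after Benjamini-Hochberg over the 5 classes). Isolated CpGs were thus below CpGs at 100 to 200 bp in every class, and most so where methylation was low: the gap in the lowest class minus that in the highest was -3.85 points, with the same sign in 6 of 6 libraries (two-sided exact sign-flip permutation p = 0.03125). The fall with distance among isolated CpGs was smaller within these classes than over all bins. From the lowest class up, levels at 200 to 300 bp were 42.9%, 54.6%, 65.4%, 75.5% and 82.3%. At 300 to 500 bp they were 42.9%, 54.6%, 65.0%, 76.0% and 82.6%. Over 500 bp they were 40.3% ± 0.364, 52.5%, 62.8%, 75.6% and 81.9% ± 0.439 (SD, n = 6). At 70 to 80% and at 80% and over, the level thus did not fall steadily with distance.

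**Figure D2:**
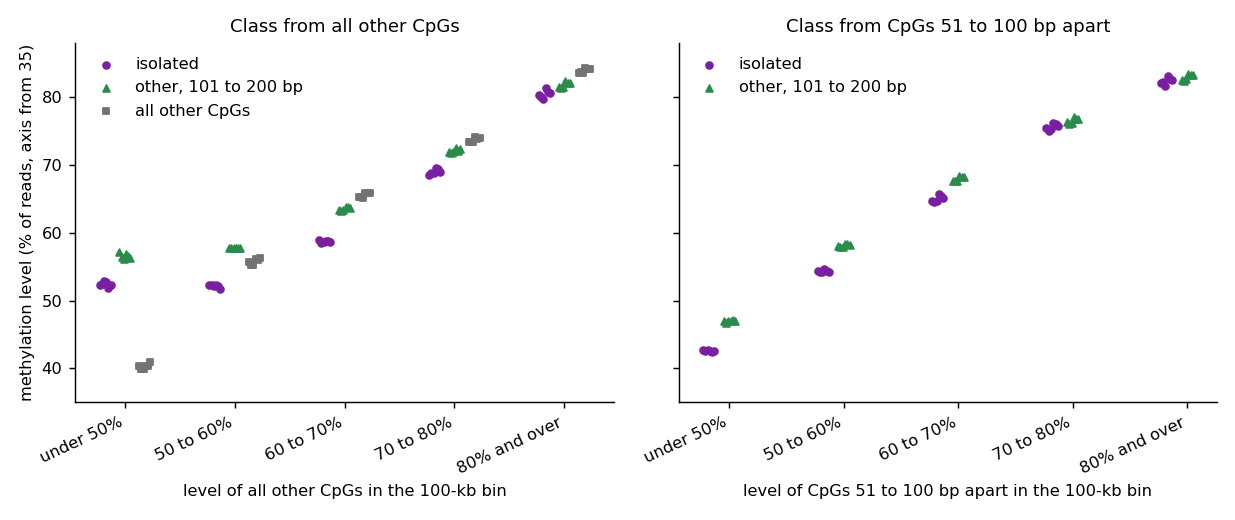
Methylation level (% of reads, with the axis starting above 0) of isolated CpGs, of CpGs 100 to 200 bp from their neighbour and, on the left, of all other CpGs, with 1 point per library, by class of the 100-kb bin from all other CpGs (left) or from CpGs 50 to 100 bp apart (right). On the right, isolated minus CpGs at 100 to 200 bp is -4.40 points in the lowest class and -0.553 points in the highest.

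The CpG content of a bin moved with the level too. In the fifth of the 100-kb bins with the fewest CpGs (34 to 502 seen per bin), 274886 isolated CpGs had a level of 52.3% ± 0.107 (SD, n = 6), and isolated minus other CpGs of these bins was -12.5 points. In the fifth with the most (1263 to 5411 per bin), 74427 isolated CpGs had 69.2% ± 0.582 (SD, n = 6) and lay 2.60 points above the others. Isolated CpGs thus went from far below to above the other CpGs of their bins, whose level stayed between 64.8% and 67.9% in all 5 groups of bins. The parts of CpG content, depth and bin class in the level were not tested.

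Over longer stretches, isolated CpGs varied more than all other CpGs pooled. In 1942 bins of 1 Mb with at least 100 reads on isolated CpGs in every library, their pooled level ran from 19.6% to 86.7%, with an SD of 12.5 points across bins, and that of other CpGs in the same bins had an SD of 7.36 points. Fewer reads lie behind the isolated level of a bin, and the part of counting error in its SD was not tested. A wide range was not particular to isolated CpGs. Over the classes of 100-kb bins from CpGs at 50 to 100 bp, CpGs at 100 to 200 bp ran from 46.9% to 82.9%. Isolated CpGs ran from 42.5% to 82.4% over the same classes. The levels of isolated and other CpGs were related across bins (Pearson's r = 0.608, Spearman's rho = 0.614), where both come from the same libraries and adjacent bins are not independent. Isolated CpGs were lower than other CpGs in 1223 of the bins (63.0%). In 109 bins (5.61%) isolated CpGs were under 40%, while the median level of other CpGs there was 53.8%. Such bins often lay side by side: of those with a tested bin next to them, 40.6% were followed by another one under 40%. Likewise, 316 bins (16.3%) had isolated CpGs at 75% or over, with other CpGs at a median of 70.4%, and of those with a tested bin next to them, 30.5% were followed by another such bin.

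**Figure D3:**
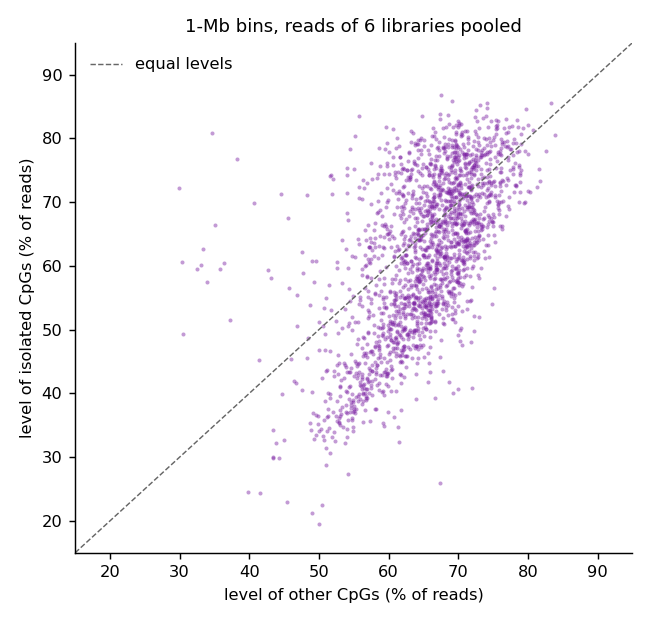
Pooled methylation level of isolated CpGs against that of other CpGs (both % of reads of 6 libraries) in 1942 bins of 1 Mb, with 1 point per bin and a dashed line where both are equal. Isolated CpGs spread from 19.6% to 86.7% and lie below the line in 1223 bins.

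The 2 lowest bins were low in every library. At 1 to 1000000 of chromosome 15 (positions on UMD3.1.1), 489 isolated CpGs had levels of 21.8%, 18.4% and 18.5% in the controls and of 16.5%, 20.3% and 21.8% in the butyrate libraries, where other CpGs had 50.1%. At 51000001 to 52000000 of chromosome 17, 388 isolated CpGs went from 21.3% ± 2.06 for control to 21.4% ± 0.904 for butyrate (SD, n = 3 each), against 49.0% for other CpGs. The groups overlapped in both. The highest levels were at 43000001 to 44000000 of chromosome 15, with 84.5% ± 2.98 for control and 89.1% ± 2.03 for butyrate, and at 67000001 to 68000000 of chromosome 14, with 87.0% ± 1.27 and 84.8% ± 1.78 (SD, n = 3 each). Chromosome 15 thus held both the lowest and the highest of the tested bins. Genes within these bins were not analysed here.

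By chromosome, isolated CpGs ranged from 54.1% ± 0.256 on chromosome 29 to 65.7% ± 0.466 on chromosome 10 (SD, n = 6). Their mean over libraries was below that of other CpGs on all 29 autosomes, with the widest difference, -11.7 points, on chromosome 12, the narrowest, -0.216 points, on chromosome 10 and a median of -5.78 points.

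The effect of butyrate on isolated CpGs was then examined. Their level went from 61.6% ± 0.0430 for control to 61.8% ± 0.213 for butyrate (SD, n = 3 each). The change of 0.139 points did not exceed the spread between replicates, because butyrate replicate 3 lay below all 3 controls (two-sided exact permutation p = 0.4, where 3 libraries against 3 cannot go below 0.1). Without butyrate replicate 3 it was 0.233 points with no overlap, and without butyrate replicate 1 it was 0.0235 points. With a minimum of 3 reads per CpG, set for each library by itself so that libraries could keep different CpGs, the direction turned, to -0.456 points with overlap. In CpGs covered in all 6 libraries it was 0.442 points with overlap, and with isolation over 100 bp it was 0.237 points without it. Some subsets of isolated CpGs were higher in each butyrate library than in any control: those in the 3 groups of bins with the most CpGs, by 0.359, 0.416 and 0.807 points in order of CpG content, and those with no isolated neighbour, by 0.271 points. Others overlapped: the 2 groups of bins with the fewest CpGs changed by -0.0576 and 0.114 points, and isolated CpGs with an isolated neighbour on 1 side or on both by 0.00393 and 0.116 points. Other CpGs were higher in each butyrate library than in any control. The gap of isolated minus other CpGs was accordingly wider with butyrate, at -4.90 points ± 0.211 against -4.45 points ± 0.0733 for control (SD, n = 3 each). This change of the gap, -0.456 points, is the test of whether isolated and other CpGs, pooled over all bins, changed alike. It showed no overlap between butyrate and control (two-sided exact permutation p = 0.1, the smallest possible). Against CpGs at 100 to 200 bp alone it was -0.146 points. With the minimum of 3 reads it came to -1.21 points, and in CpGs covered in all 6 libraries -0.268 points with overlap. By class of the 100-kb bin, the gap itself moved both ways from control to butyrate. It went from -3.14 to -4.04 points at 50 to 60% and from -6.62 to -7.12 points at 60 to 70%, free of overlap. At 70 to 80% it went from -4.69 to -4.64 points and at 80% and over from -3.57 to -3.29 points, narrower but with overlap. Under 50%, where isolated CpGs lay above, it went from 12.5 to 11.7 points, with overlap. These changes by class were not tested.

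Lane was partly confounded with treatment: lane 5 held butyrate replicates 1 and 3, and lane 6 held butyrate replicate 2 with the 3 controls. On lane 6 alone, butyrate minus control was 0.0973 points for isolated CpGs and -0.379 points for their gap to other CpGs. On lane 5 there was no control to compare with.

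By distance and over all bins, butyrate minus control was largest at CpGs with close neighbours and had no fixed sign among isolated ones. It was 0.755 points up to 10 bp, 0.494 points both at 10 to 20 bp and at 20 to 50 bp, 0.358 points at 50 to 100 bp and 0.285 points at 100 to 200 bp, with all 3 butyrate libraries above all 3 controls in each class (two-sided exact permutation p = 0.1, Benjamini-Hochberg over 8 classes 0.133). Among isolated CpGs it was 0.136 points at 200 to 300 bp (two-sided exact permutation p = 0.4), 0.278 points at 300 to 500 bp (p = 0.1 in the same exact test) and -0.194 points over 500 bp (p = 0.6 in the same exact test). Of these last 3 classes, the one at 300 to 500 bp was free of overlap. The order was not the same in every class of the 100-kb bin. In bins at 80% and over the change was 0.476 points up to 10 bp and 0.952 points at 50 to 100 bp. It was 0.969 points at 200 to 300 bp and 0.783 points over 500 bp there. In bins at 50 to 60% it was 1.01 points up to 10 bp and -0.267 points at 200 to 300 bp.

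By the class of the 100-kb bin, isolated CpGs were higher with butyrate in the more methylated bins. In bins at 80% and over, the controls had 80.28%, 80.02% and 79.77%, and the butyrate libraries had 81.3%, 80.7% and 80.6%. All 3 butyrate libraries lay above all 3 controls, by 0.859 points in the mean. In bins at 70 to 80% the controls had 68.5%, 68.8% and 68.7% and the butyrate libraries 69.6%, 69.4% and 69.0%, a change of 0.636 points, again free of overlap (two-sided exact permutation p = 0.1 for both classes, 0.25 after Benjamini-Hochberg over the 5 classes). The changes were 0.121 points at 60 to 70%, -0.216 points at 50 to 60% and -0.262 points under 50%, each with overlap (two-sided exact permutation p = 0.5, 0.4 and 0.4). Other CpGs of the same bins were higher with butyrate by 0.537 to 0.681 points in each of the 5 classes. The CpGs most like isolated ones, at 100 to 200 bp, also changed by class: by 0.00464 and 0.00788 points in the 2 lowest classes, with overlap, and by 0.374, 0.499 and 0.752 points in the 3 highest, free of overlap. The rise with bin class was therefore not particular to isolated CpGs. On lane 6 alone, isolated CpGs changed by 0.674 points in bins at 80% and over, by 0.677 points at 70 to 80% and by -0.750 points under 50%. With at least 3 reads per CpG and library the change was -0.176 points at 70 to 80%, with overlap, 1.4998 points at 80% and over, free of it, and -2.71 points under 50%, also free of it. In CpGs covered in all 6 libraries it was 1.84 points at 70 to 80%, free of overlap, and -0.0352 points at 80% and over, with overlap, and the 3 lower classes turned direction, to 0.213, 0.604 and -0.0469 points from the lowest up, with overlap.

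The contrast between classes was tested in itself, a test added after these values had been seen. The level of isolated CpGs in bins at 80% and over minus that in bins under 50% was 27.4 points ± 0.541 for control and 28.6 points ± 0.288 for butyrate (SD, n = 3 each). It was larger in each butyrate library than in any control, by 1.12 points in the mean (two-sided exact permutation p = 0.1). With classes from the CpGs at 50 to 100 bp, isolated CpGs were 0.825, 0.766 and 0.744 points higher with butyrate in the 3 most methylated classes, free of overlap, and changed by 0.0983 and -0.136 points in the 2 least methylated ones, with overlap. CpGs at 100 to 200 bp were 0.782, 0.666 and 0.631 points higher in the same 3 classes and changed by 0.333 and 0.135 points in the other two, the last with overlap. Whether isolated CpGs differed from them in this was not tested. Among the 5741 isolated CpGs covered in all 6 libraries, the contrast changed by -0.248 points and the libraries of both groups mixed (two-sided exact permutation p = 0.8). With the minimum of 3 reads per CpG, set for each library by itself, the contrast changed by 4.21 points, free of overlap (two-sided exact permutation p = 0.1).

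**Figure D4:**
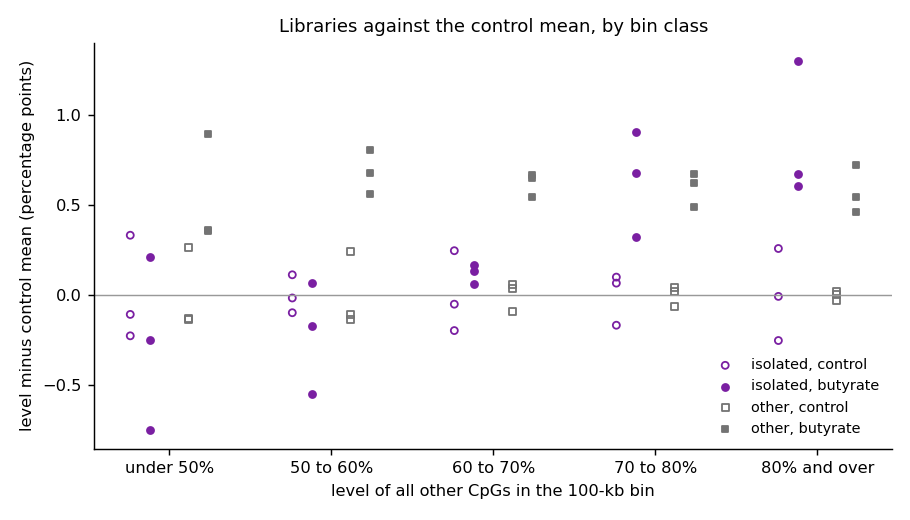
Level of each library minus the control mean of its class (percentage points) for isolated CpGs (circles) and other CpGs (squares), control open and butyrate filled, by class of the 100-kb bin. Filled circles lie above the open ones in bins at 70 to 80% and at 80% and over (0.636 and 0.859 points) and overlap them in the 3 lower classes, and filled squares, which include close-spaced CpGs, lie above the open ones in all 5, although CpGs at 100 to 200 bp (not drawn) overlap in the 2 lowest.

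On single chromosomes, isolated CpGs had a higher mean with butyrate on 18 of 29 autosomes and a lower one on 11. There was no overlap on 2 of them (6.90% of autosomes), with 0.674 points on chromosome 10 and -0.904 points on chromosome 20. Random labels would leave, on average, a fraction of 0.1 of autosomes free of overlap. The autosomes were read in the same 6 libraries, so they are not independent of each other. The largest difference, 0.998 points on chromosome 19, came with overlap. Other CpGs had a higher mean with butyrate on all 29, free of overlap on 28 (96.6% of autosomes).

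In the 1942 bins of 1 Mb, limma with eBayes and Benjamini-Hochberg adjustment called 1 bin (0.0515%) at an adjusted p under 0.05, and 108 bins (5.56%) had an unadjusted p under 0.05. The butyrate libraries lay above all controls in 132 bins (6.80%) and below all controls in 63 bins (3.24%). In total, 54.9% of bins had a higher log ratio with butyrate, or 48.1% after each library was centred on its median bin. For other CpGs in the same bins 71.6% were higher and limma called 0, with 163 bins (8.39%) at an unadjusted p under 0.05.

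The called bin was at 36000001 to 37000000 of chromosome 12, with 312 isolated CpGs and 102 to 143 reads per library. The controls had 73.9%, 74.1% and 75.6%, and the butyrate libraries had 83.3%, 84.3% and 85.8%. All 3 butyrate libraries thus lay well above the highest control. The log2 ratio of methylated to unmethylated reads was higher by 0.86 (SE 0.18, limma adjusted p = 0.0393). When any single library was left out the log2 ratio difference of this bin stayed at 0.79 to 0.93, but it was no longer called (limma adjusted p from 0.103 to 0.668). With all 6 libraries kept, the call was also lost with a minimum of 20 reads, with centring on the median and with the replicate block (limma adjusted p = 0.187, 0.0730 and 0.222). With lane as a covariate, which leaves 1 butyrate library on the lane of the controls, it was 0.84 (limma adjusted p = 0.547). The other bin named as higher, at 96000001 to 97000000 of chromosome 11, had 76.4% ± 4.58 for control and 84.5% ± 5.20 for butyrate (SD, n = 3 each), and 1 butyrate library lay within the control range (limma adjusted p = 0.562). With lane as a covariate, which leaves butyrate replicate 2 alone to be set against the controls, the log2 ratio difference of this bin went from 0.76 to 1.41 (limma adjusted p = 0.00828), and without butyrate replicate 2 it was 0.43 (limma adjusted p = 0.904), so that the bin rested on this library. The bins named as lower were at 31000001 to 32000000 of chromosome 28, from 83.4% ± 3.78 to 75.3% ± 2.97, and at 67000001 to 68000000 of chromosome 15, from 80.3% ± 3.95 to 73.0% ± 2.72 (SD, n = 3 each), neither past the threshold (limma adjusted p = 0.562 and 0.669).

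The evenness of methylation from site to site was measured from pairs of libraries, since their reads on the same CpG come from separate library preparations. The covariance of levels at CpGs covered in both libraries, divided by the variance of a single call at the mean level, estimates the share of variance that lies between CpGs. It is high where each CpG is almost always or almost never methylated, and near 0 where all CpGs share 1 level. For isolated CpGs this share had a median of 34.0% over the 15 pairs of libraries, with a range of 33.7% to 34.9%, and for other CpGs it was 47.9% (47.5% to 48.3%). CpGs at 100 to 200 bp had 33.4% (32.8% to 34.3%), so that isolated CpGs were close to them and below the rest. By class, the share for isolated CpGs was 37.99% in bins under 50%, 33.3% at 50 to 60%, 30.4% at 60 to 70%, 29.6% at 70 to 80% and 30.2% at 80% and over. The shares are a description, since pairs have libraries in common. For isolated CpGs they averaged 34.2% within groups and 34.1% between groups.

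**Figure D5:**
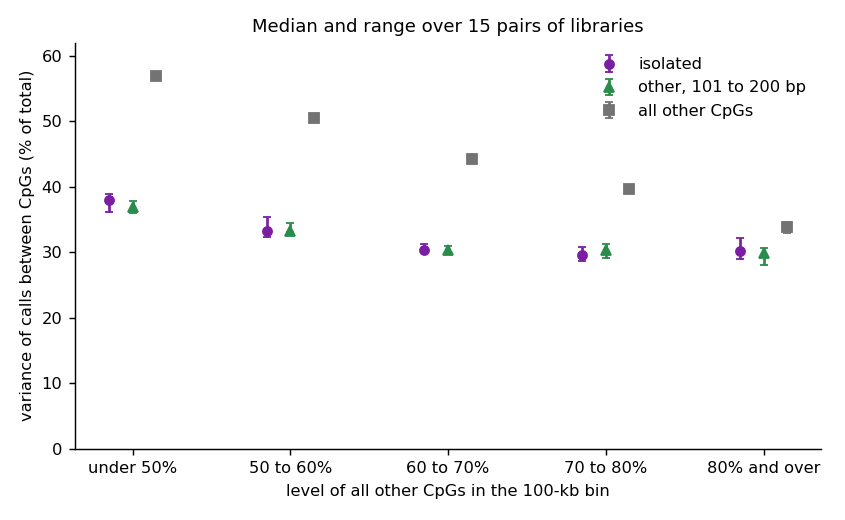
Share of the variance of methylation calls that lies between CpGs (% of total), by class of the 100-kb bin, as the median (symbol) and range (bar) over 15 pairs of libraries. Isolated CpGs and CpGs at 100 to 200 bp lie close together, at 29.6% to 37.99% for isolated CpGs, and below all other CpGs in every class.

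Isolated CpGs with 10 to 20 reads over the 6 libraries were also more often intermediate than all other CpGs pooled. Of 5880 such isolated CpGs, 38.1% had a level of 80% or over, 46.7% lay between 20% and 80% and 15.3% at or under 20%. Of other CpGs with this depth, 51.9% were at 80% or over, 26.3% in between and 21.8% at or under 20%. CpGs at 100 to 200 bp lay nearer to isolated ones, with 47.4%, 41.0% and 11.6%. In bins at 80% and over, 67.3% of these isolated CpGs were at 80% or over, and in bins at 50 to 60% this was 25.6%. At this depth counting error alone moves a CpG between these ranges, and few isolated CpGs were read so often.

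For a test at single sites, 73512 autosomal CpGs had at least 10 reads in every library, of which 7 were isolated. Covered other CpGs averaged 1.68 to 1.85 reads in a library, so the 73512 were unusually deep and may not stand for the autosomes. After Benjamini-Hochberg adjustment over the 73512, the logistic regression called 0 (0.00%), with 4008 (5.45%) at an unadjusted p under 0.05. By limma 0 were called too, with 3826 at an unadjusted p under 0.05. At this depth most changes at single sites would be missed, also ones well over 10 points. Of the 7 isolated CpGs, 1 had an unadjusted p under 0.05 in the logistic regression. At position 51506270 of chromosome 14, 278 bp from the nearest CpG, 16 of 17, 10 of 12 and 16 of 18 reads were methylated in the controls and 7 of 11, 15 of 18 and 9 of 14 in the butyrate libraries, so that the groups met at 83.3%. The level of this CpG went from 88.8% to 70.4%, and its adjusted p in the logistic regression was 0.893. At 55539480 of chromosome 7 the level went from 87.4% ± 11.1 to 80.2% ± 2.15, and at 60795748 of chromosome 21 from 18.5% ± 7.18 to 10.2% ± 10.8 (SD, n = 3 each). A higher mean with butyrate was seen at 56586524 of chromosome 7, with 47.9% ± 5.90 and 56.1% ± 14.6, and at 23708609 of chromosome 27, with 48.1% ± 14.7 and 53.9% ± 9.48 (SD, n = 3 each). The most distant of the 7 were at 22881848 of chromosome 16, 287 bp from the nearest CpG, with 43.5% ± 23.3 and 48.8% ± 8.20, and at 6543092 of chromosome 6, 284 bp away, with 8.85% ± 7.85 and 6.56% ± 3.46 (SD, n = 3 each). Isolated CpGs at these sites thus took levels from nearly unmethylated to nearly full, and the groups overlapped or met at each of the 7. Covered isolated CpGs averaged 1.22 to 1.26 reads in a library and none had more than 29. The 7 were thus unusually deep and may not stand for isolated CpGs in general. At 56586524 of chromosome 7 all reads lay on a single strand. When each library was left out in turn, the pooled difference ranged from 1.62 to 14.4 points at the CpG of chromosome 27, from -11.8 to -0.778 points at 55539480 of chromosome 7 and from -6.69 to -1.15 points at that of chromosome 6. At that of chromosome 14 it stayed between -25.4 and -13.5 points.

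Isolation itself depended on which CpGs had been read. When the positions of 5 libraries were used, 973453 to 978875 CpGs were isolated, and 90.7% to 92.1% of them stayed so once the remaining library was added. Those that stayed had a level of 61.6% to 61.7% in the 5 libraries, and those that were lost had at least 63.2%. CpGs that no library had read could not be counted, so that some isolated CpGs may have a neighbour that was not read.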

How the data were processed

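WGBS reads of 6 REPC libraries were trimmed by the authors with Trim Galore 0.4.1, mapped to UMD3.1.1 with bowtie2 and summarised with Bismark. The deposited values were raw counts of methylated and unmethylated reads per CpG cytosine, with at least 1 read per row, so the minimum of 10 reads in the study's methods was not yet applied. The files carry no header, and the first count was read as methylated because it holds most reads in every library, as is usual in mammalian cells; were the columns the other way round, every level would be its complement. The sources used here do not give the bisulfite conversion or say whether duplicates were removed. Kept duplicates would make reads less independent, and unconverted cytosines would raise every level. Libraries held 18793438 to 23842285 reads over CpGs.

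Rows at adjacent positions were joined as 1 CpG. In 436862 runs of 3 or more adjacent rows, pairing ran from the left. Levels were methylated over all reads, so that deeper CpGs weigh more. Group differences were tested by two-sided exact permutation and differences within libraries by exact sign flips. Bins of 1 Mb were tested by limma on log2((methylated + 1)/(unmethylated + 1)). Single CpGs were tested by logistic regression with a likelihood-ratio test (adjusted p under 0.05 and over 10 points). Limma on 1-Mb bins, the logistic regression and the quasi-binomial F test were also run on simulated counts. These were binomial, with no added spread between libraries. In them the quasi-binomial F test was less sensitive than limma or logistic regression. Over 1-Mb bins the chi-square between replicates was 1.003 to 1.037 times its degrees of freedom, so that no difference was seen bin by bin. Replicates read different CpGs, and the pooled levels of butyrate replicates 1 and 3 had Wilson intervals that did not overlap, so all 6 were kept as separate libraries.

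Named bins and CpGs were those with the 2 smallest p in each direction, the 2 lowest and 2 highest bins and the 2 most distant CpGs. The CpG of chromosome 21 was named after its values were seen, to complete the 7. Isolated CpGs, classes and tests were chosen with earlier results of these data known. Alternatives were other read minimums, CpGs covered in several or all libraries, equal weights, other distances, bin sizes and classes, other tests, the replicate block, lane and leaving out each library. Sequence context, repeats and genes were not analysed here. Python 3.11.15, NumPy 2.4.6, SciPy 1.17.1, pandas 2.3.3, Matplotlib 3.10.9 and R 4.3.3 with limma 3.58.1 were used.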

Additional observations from a re-analysis of the deposited data

Results flagged for a closer look

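The gap between isolated and other CpGs differed between kinds of bin. In bins under 50% minus bins at 80% and over it came to 15.6 points ± 0.783 (SD, n = 6), with the same sign in 6 of 6 libraries. No test is given, because the level of other CpGs both set these classes and entered the gap. With bins of 500 kb it was 8.47 points. The direction turned with other CpGs as the reference or as the base of the classes: it was -2.83 points against CpGs at 100 to 200 bp, -3.85 points with classes from CpGs at 50 to 100 bp as well and -25.2 points with classes from CpGs at 50 to 200 bp against all other CpGs. On chromosome 10 all butyrate libraries lay above all controls in isolated CpGs, by 0.674 points in the mean, whereas on chromosome 20 all lay below, with -0.904 points. The difference between these chromosomes was not tested, and they were picked from 29.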

How the results depend on the processing

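All changes here are butyrate minus control in isolated CpGs, in points, unless named otherwise, and the cause of each move was not tested. On lane 6 alone the change was 0.0973 over all, -0.750 in bins under 50% and -0.169 at 50 to 60%, where 1 butyrate library lay outside the control range. With at least 3 reads per CpG it was -0.456 over all. By class it was -2.71 under 50%, -0.960 at 50 to 60%, 0.357 at 60 to 70%, -0.176 at 70 to 80% and 1.4998 at 80% and over. The highest minus the lowest class was 4.21 with this minimum, and the gap to other CpGs at 50 to 60% was -1.13. In CpGs covered in all 6 libraries it was 0.442 over all, 0.213, 0.604, -0.0469, 1.84 and -0.0352 in the 5 classes from under 50% to 80% and over, -0.248 for the highest minus the lowest class and -0.268 for the gap. With isolation over 100 bp it was 0.237 over all and 0.276 at 60 to 70%, and the gap at 50 to 60% was 1.14. With isolation over 400 bp it was 0.189 under 50%, 0.437 at 70 to 80% and 0.604 for the highest minus the lowest class, each with overlap. With bins of 500 kb it was 0.330 at 60 to 70%, free of overlap, and 0.514 at 80% and over, with overlap. With classes from CpGs at 50 to 200 bp, chosen after seeing the data, it was -0.180, 0.182 and 0.677 in the 3 lowest classes, and the gap was -19.3 under 50%, 6.22 at 70 to 80%, 5.91 at 80% and over and -25.2 for lowest minus highest. Against CpGs at 100 to 200 bp, also chosen after seeing the data, the gap was -4.17 under 50% and -2.83 for lowest minus highest. With classes from CpGs at 50 to 100 bp in addition, these were -4.40 and -3.85, and the change was 0.0983 at 50 to 60% and 0.744 at 60 to 70%. Without 1 library in turn, the change ranged from 0.0235 to 0.233 over all, -0.499 to -0.0183 under 50%, -0.358 to -0.0501 at 50 to 60% and 0.0232 to 0.245 at 60 to 70%, and the single CpGs at 56586524 of chromosome 7 and 22881848 of chromosome 16 ranged from -0.887 (without butyrate replicate 1) to 14.1 and from -4.73 (without control replicate 3) to 14.2, the latter with -0.292 without butyrate replicate 3. The number of called 1-Mb bins was 0 without any 1 library, with bins of 500 kb or 2 Mb, at least 20 reads, centring, the replicate block or the quasi-binomial F test, which was less sensitive than limma. Isolated minus other CpGs, and farthest minus nearest isolated CpGs, kept their sign in every library used under each alternative run for them, from -7.84 to -1.62 and from -4.92 to -3.39. Deviations of same-numbered libraries over bins were hardly related (r = -0.0217, 0.0289 and -0.0234). Replicates differed over bins by little more than counting error, so this could not decide whether replicate numbers pair the libraries. Levels by flanking bases, repeats and genes were not run, since no genome of the files' build was used here. Depth limited single sites, of which 7 could be tested.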
